A study of Danio rerio with 12 samples.

Results

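Messenger RNAs of plasma proteins that the liver is known to secrete were measured in zebrafish ovarian follicles. The 36 genes described here are those of 32057 gene IDs in the deposited count table whose symbol was on a list of 38 names, with at least 10 counts summed over the 12 libraries. Of the 38 names, hpx (hemopexin, a haem carrier) had no ID of that name and hp (haptoglobin, a haemoglobin carrier) had no count in any library and was left out. The member just inside the minimum was ttr (transthyretin, a thyroid hormone carrier), with 15 counts in all. The names were chosen after liver transcripts had been noticed to differ between the genotypes at 50 days post-fertilization (dpf), so the levels at that age chose the members and are given below as a description without a test. The members were grouped by role as 5 carriers of metals, vitamins and hormones, 7 clotting genes, 6 protease inhibitors and fetuins, 6 complement genes, 9 apolipoproteins and 3 proteins that stay inside the liver cell.

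Hepatocytes make most proteins of the blood plasma and secrete them into the circulation, where they carry iron, copper, vitamins and lipids, form and dissolve clots, restrain proteases and attack microbes. In egg-laying vertebrates the liver also makes the vitellogenins, yolk precursors that growing oocytes take up from the blood by receptors. Transcription of many of these genes in the liver depends on hepatocyte nuclear factors and C/EBP proteins.

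Bulk RNA sequencing of primary growth follicles, in which the oocyte enlarges before it takes up yolk, gave 3 libraries in each of 4 groups of AB strain fish. Wild type (cdkn1a +/+) and heterozygotes (cdkn1a +/-), which carry 1 disrupted copy made with CRISPR/Cas9, were sampled at 50 dpf and at 8 months post-fertilization (mpf). Homozygous mutants die as embryos per the series' design, so heterozygotes stand for the loss of cdkn1a, a gene that encodes an inhibitor of cell division. No sample had another allele, transgene or agent on its label. The labels do not say how many fish or follicles went into a library or whether libraries of a group came from separate fish, so p-values measure only the spread between these libraries, which may be technical. No sampling or library batch is given, so a batch cannot be told apart from age or genotype.

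Libraries held 31044931 to 96839220 counts, and levels are given as CPM, the count divided by the scaled library size and brought to a common total. Genes with a count numbered 21046 to 22496 in wild-type and 18903 to 19510 in heterozygote libraries at 50 dpf. At 8 mpf they numbered 20569 to 22525 and 19272 to 21771. Whether this difference bears on the levels of the members was not tested. CPM is not divided by transcript length, so levels are compared between libraries and not between genes. cdkn1a was at 3.37, 3.87 and 3.5 CPM in the wild type and 0.45, 0.422 and 0.519 CPM in heterozygotes at 50 dpf. At 8 mpf it was at 0.668, 1.13 and 0.778 CPM in the wild type and 0.397, 0.651 and 0.583 CPM in heterozygotes, so no heterozygote library reached the lowest wild-type library of its age. Oocyte markers were abundant in all libraries, with 8 genes summing to 4030 to 11600 CPM, led by zp3b, buc and zar1. Of markers of the hepatocyte itself, hnf4a, a nuclear receptor that defines the liver cell, was at 0 to 0.183 CPM in the 12 libraries and did not reach the level needed for a test. The name of the 36 genes therefore refers to where their proteins are known to be made, not to a cell type shown in these libraries.

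The members were high in wild type at 50 dpf and low in the other groups. Without the apolipoprotein E gene apoeb, which ran the other way, the other 35 members summed to 338 to 355 CPM in the wild type at 50 dpf and to 40.1 to 46.1 CPM in heterozygotes of that age. At 8 mpf the same sum was 22.2 to 33.9 CPM in the wild type and 26.0 to 34.8 CPM in heterozygotes, ranges that overlap. Leaving out c3a.1 and itih2 as well, whose levels at 8 mpf made up much of that sum, gave 9.82 to 16.4 CPM in the wild type and 18.7 to 24.3 CPM in heterozygotes at 8 mpf, without overlap; these 2 genes were chosen after their values were seen. In bulk samples, fewer cells of a type and less RNA per cell cannot be told apart.

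**Figure D1:**
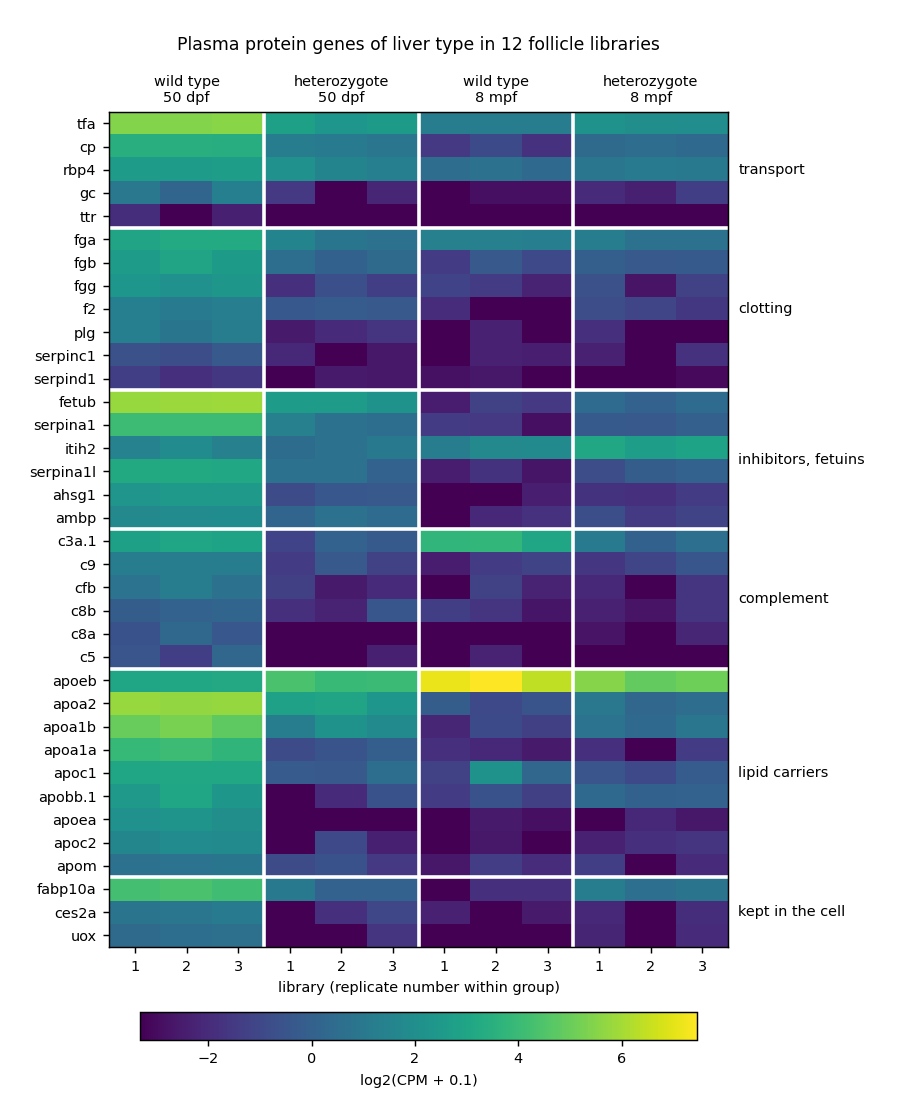
Level of each of the 36 members (rows, grouped by role) in each of the 12 libraries (columns, grouped by genotype and age), as log2(CPM + 0.1). Most members are brightest in the 3 wild-type libraries at 50 dpf, while apoeb and c3a.1 are brightest in wild type at 8 mpf and itih2 in heterozygotes at 8 mpf.

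Of the 36 members, 34 passed the filter on low counts and entered the fit of 18834 genes; ttr and serpind1 did not. A member that passed only through its level in wild type at 50 dpf had to differ in comparisons with that group, so these counts are no support for a difference. At 50 dpf, 1 of the 34 was past the threshold (adjusted p under 0.05) and higher in heterozygotes, against 19.6% of all tested genes, and 32 were lower, against 21.2% of all tested genes. The median log2 fold change of the 34 members was -3.18, or -3.12 with genes that had no count in 1 group set to their bound, and that of all tested genes was -0.07. In 33 of the 34 the heterozygote libraries were lower throughout than those of wild type, as they were for 30.7% of all tested genes. Because the 50 dpf levels chose the members, nothing is read from these counts.

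The group means compared at 8 mpf share no library with those at 50 dpf. The 8 mpf comparison played no part in choosing 32 of the 34 fitted members. The genes tfa and fetub had been picked out before by their change with age in wild type and get values only. The filter and the estimate of the spread used all 12 libraries, so p-values at 8 mpf also depend on the 50 dpf libraries. Some calls below changed when a 50 dpf library was left out. Of the 32, 12 rose in heterozygotes, 2 fell and 18 did not pass the threshold of 0.05 (edgeR quasi-likelihood test adjusted over all 18834 genes), where 12.6% of all tested genes rose and 15.5% fell. The median log2 fold change of the 32 was 0.93, or 0.73 with bounds, against 0.01 for all tested genes. In 14 of the 32 each heterozygote library lay above each wild-type library and in 3 below, as for 23.5% of all tested genes in each direction. Fitted values of 24 members were positive and of 8 negative. The number that rose lay between 8 and 16 over the alternatives, and the 9 members apoa1b, apoa2, apoeb, c3a.1, cp, fabp10a, itih2, serpina1 and serpina1l passed in all 22 other fits. Levels at 8 mpf were low, often under 100 counts per library, so counting error is large there.

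**Figure D2:**
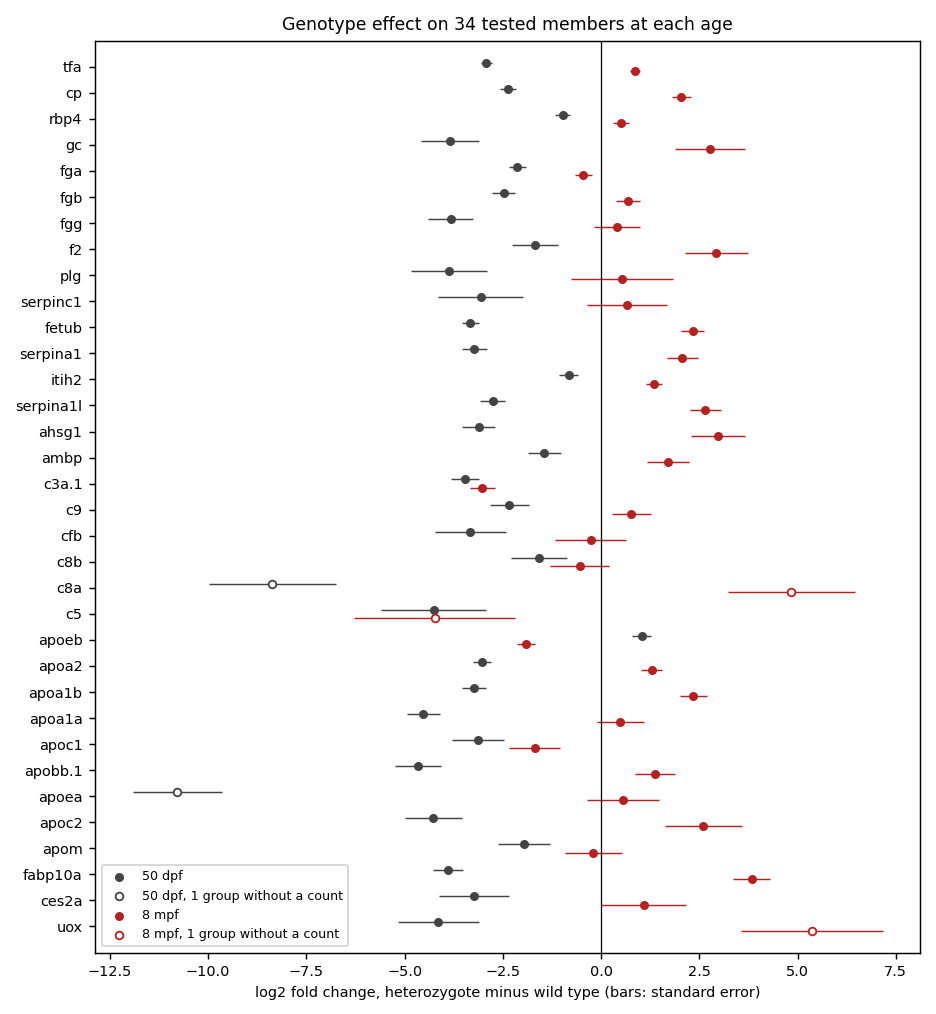
Fitted log2 fold change of heterozygote against wild type (x axis) for the 34 fitted members (y axis), at 50 dpf in grey and at 8 mpf in red, with standard errors as bars and open circles where 1 group had no count. At 50 dpf all but apoeb lie below 0, and at 8 mpf 24 of the 32 members tested there lie above 0, as do tfa and fetub.

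With age the members moved far in wild type. From 50 dpf to 8 mpf in wild type, 1 of the 34 was past the threshold and higher, where 28.7% of all genes were, and 31 were lower, where 26.5% of all genes were, with a median log2 fold change of -5.02 (-4.56 with bounds). A further member was higher without heterozygote replicate 1 at 50 dpf, heterozygote replicate 1 or 2 at 8 mpf or wild-type replicate 3 at 8 mpf, for 2 in all. In heterozygotes 4 of the 34 were higher with age (28.5% of all genes) and 11 lower (25.5% of all genes), with a median of -0.64 (-0.33 without heterozygote replicate 3 at 50 dpf). The genotype effect at 8 mpf was above that at 50 dpf past the threshold in 24 of the 34 (6.88% of all genes) and below it in 1 (6.65% of all genes), with a median difference of 4.32. These comparisons share libraries with the one that chose the members, and nothing is read from their counts.

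The carriers of metals and vitamins were highest in wild type at 50 dpf. At 50 dpf tfa (transferrin, the iron carrier of plasma) was at 43.9, 43.6 and 47.0 CPM in the wild type and at 6.96, 5.0 and 5.77 CPM in heterozygotes, 7.58-fold lower in the means. At 8 mpf tfa was at 2.23, 2.18 and 2.28 CPM in the wild type and at 4.56, 3.86 and 3.78 CPM in heterozygotes, with a fitted log2 fold change of 0.87 (SE 0.13) and no overlap of libraries. With library size alone in place of the scaling this value was 0.68.

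Ceruloplasmin, a copper-carrying enzyme that oxidises iron, is encoded by cp. It was at 10.7, 10.8 and 10.5 CPM in the wild type and 2.28, 2.11 and 1.77 CPM in heterozygotes at 50 dpf. At 8 mpf cp was at 0.243, 0.442 and 0.19 CPM in the wild type and 1.22, 1.35 and 1.2 CPM in heterozygotes, and it rose by 2.04 on the log2 scale (SE 0.24; edgeR adjusted p = 5.49e-05). The groups did not overlap at either age, and the order of the genotypes at 8 mpf was opposite to that at 50 dpf.

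For rbp4 (retinol-binding protein, the vitamin A carrier) the 50 dpf libraries were at 6.19, 6.17 and 6.46 CPM in the wild type and 4.29, 2.82 and 2.41 CPM in heterozygotes. At 8 mpf rbp4 was at 1.34, 1.57 and 1.18 CPM and 1.8, 2.05 and 1.94 CPM, a log2 fold change of 0.50 (SE 0.20) that did not pass the threshold (edgeR adjusted p = 0.089; 0.0305 without heterozygote replicate 1 at 50 dpf). Its genotype means differed 1.98-fold at 50 dpf, against 5.18-fold for cp.

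The vitamin D-binding protein gene gc was at 1.88, 1.04 and 2.4 CPM in the wild type and 0.242, 0 and 0.122 CPM in heterozygotes at 50 dpf. At 8 mpf it held 0, 3 and 2 counts in the wild-type libraries and 9, 4 and 29 counts in the heterozygote libraries, and it rose by 2.77 on the log2 scale (SE 0.88; edgeR adjusted p = 0.0335). This call rests on few counts and held in 12 of 21 alternatives. It was lost with limma on the normalized signal (adjusted p = 0.157 and 0.0883). It was also lost, with adjusted p between 0.0508 and 0.164, when any wild-type library at 8 mpf, heterozygote replicate 1 or 3 at 8 mpf or wild-type replicate 1 or 3 at 50 dpf was left out. ttr had counts in wild type at 50 dpf alone, at 0.165, 0 and 0.0917 CPM, and none in the 9 other libraries, where a count of 0 allows 0.0312 to 0.106 CPM.

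The 7 clotting genes stood in the same order at 50 dpf, and 1 of the 6 that were fitted rose at 8 mpf. With 12.6% of all tested genes higher there, this count is no result about the clotting genes. Fibrinogen, which thrombin turns into the fibrin of a clot, is built of chains encoded by fga, fgb and fgg. In wild type at 50 dpf fga was at 7.85, 9.68 and 9.46 CPM, fgb at 6.19, 7.8 and 5.74 CPM and fgg at 4.94, 4.32 and 5.12 CPM. Heterozygotes of that age held 2.84, 1.73 and 1.59 CPM of fga, 1.38, 0.915 and 1.22 CPM of fgb and 0.173, 0.528 and 0.305 CPM of fgg. The ratio of the genotype means was thus unequal between the chains, at 4.39-fold, 5.6-fold and 14.3-fold.

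At 8 mpf fga was at 2.51, 2.53 and 2.35 CPM in the wild type and 2.26, 1.56 and 1.58 CPM in heterozygotes (log2 fold change -0.45, SE 0.22, edgeR adjusted p = 0.142). That difference did not pass, though it did without heterozygote replicate 1 at 50 dpf (0.0439) and with library size alone as the scaling (0.0315). The beta chain gene fgb was at 0.263, 0.699 and 0.415 CPM and 0.86, 0.698 and 0.719 CPM (log2 fold change 0.68, SE 0.30, edgeR adjusted p = 0.114), and without wild-type replicate 2 at 8 mpf its adjusted p was 0.0122. The gamma chain gene fgg was at 0.344, 0.282 and 0.104 CPM and 0.546, 0.0465 and 0.333 CPM (log2 fold change 0.40, SE 0.58, edgeR adjusted p = 0.646). The groups of fgb and fgg overlapped.

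Prothrombin, the precursor of thrombin, is encoded by f2. It was at 2.42, 2.17 and 2.35 CPM in the wild type and 0.692, 0.775 and 0.703 CPM in heterozygotes at 50 dpf. At 8 mpf f2 had 8, 0 and 0 counts in wild type and 29, 16 and 23 counts in heterozygotes, and it rose by 2.93 on the log2 scale (SE 0.80; edgeR adjusted p = 0.0161). The call was lost with only the 2 groups of that age in the fit (adjusted p = 0.091) and without heterozygote replicate 1 (0.0536) or wild-type replicate 3 (0.0513) at 8 mpf. The fitted f2 value ran from 2.18 to 7.24 over the 22 alternatives, the highest without wild-type replicate 1 at 8 mpf, which left no count in wild type.

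The other clotting members had mean levels of at most 2.12 CPM in any group. Plasminogen (plg), from which the clot-dissolving protease plasmin is cut, was at 2.12 ± 0.379 CPM in the wild type and 0.141 ± 0.0723 CPM in heterozygotes at 50 dpf (SD, n = 3, also below). Antithrombin (serpinc1) was at 0.572 ± 0.113 and 0.0665 ± 0.0694 CPM, and heparin cofactor II (serpind1), both inhibitors of thrombin, was at 0.238 ± 0.0587 and 0.0438 ± 0.0382 CPM. At 8 mpf plg (log2 fold change 0.53, SE 1.29, edgeR adjusted p = 0.799) and serpinc1 (log2 fold change 0.66, SE 1.02, edgeR adjusted p = 0.67) did not pass, and serpind1 had at most 5 counts in a library of that age.

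All 5 protease inhibitors and fetuins tested at 8 mpf rose in heterozygotes, where 12.6% of all tested genes rose. At 50 dpf fetub (fetuin B, in mice an inhibitor of the egg protease that hardens the egg coat) was at 55.6, 57.0 and 58.5 CPM in the wild type and 6.2, 6.2 and 4.61 CPM in heterozygotes. At 8 mpf fetub was at 0.081, 0.331 and 0.242 CPM in the wild type and at 1.26, 0.954 and 1.27 CPM in heterozygotes, with a fitted log2 fold change of 2.33 (SE 0.29). Its mean in wild type was thus 262-fold higher at 50 dpf than at 8 mpf, against 4.89-fold in heterozygotes.

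The gene serpina1 encodes alpha-1-antitrypsin, which restrains neutrophil elastase, and serpina1l is a related gene beside it. At 50 dpf serpina1 was at 16.6, 16.5 and 16.9 CPM in the wild type and 2.46, 1.51 and 1.37 CPM in heterozygotes, and serpina1l at 9.23, 9.14 and 8.75 and 1.52, 1.55 and 0.947 CPM. At 8 mpf serpina1 was at 0.263, 0.245 and 0.0346 CPM in the wild type and 0.727, 0.698 and 0.885 CPM in heterozygotes, and it rose by 2.07 on the log2 scale (SE 0.40; edgeR adjusted p = 0.00202). The level of serpina1l at that age was 0.081, 0.196 and 0.0519 CPM in the wild type and 0.479, 0.814 and 0.958 CPM in heterozygotes, and it rose by 2.65 on the log2 scale (SE 0.40; edgeR adjusted p = 0.000339). Neither gene had overlapping groups at either age. How reads shared by such related genes were assigned is not given in the sources used here, so the split between these genes is uncertain.

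Fetuin A, a carrier of mineral in plasma, is encoded by ahsg1. It was at 4.77, 5.57 and 5.52 CPM in the wild type and 0.45, 0.669 and 0.703 CPM in heterozygotes at 50 dpf. At 8 mpf ahsg1 had 0, 0 and 5 counts in wild type and 12, 8 and 27 counts in heterozygotes, and it rose by 2.98 on the log2 scale (SE 0.69; edgeR adjusted p = 0.00625). With only the 2 groups of that age in the fit the adjusted p was 0.0695.

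The gene ambp encodes bikunin, the protease inhibitor that the inter-alpha-trypsin heavy chains bind, and itih2 encodes 1 of those heavy chains, which in mammals cross-link hyaluronan around the ovulated egg. At 50 dpf ambp was at 3.31, 3.54 and 3.65 CPM in the wild type and 1.04, 1.55 and 1.25 CPM in heterozygotes. At 8 mpf it was at 0, 0.135 and 0.19 and 0.496, 0.256 and 0.365 CPM and rose by 1.70 on the log2 scale (SE 0.54; edgeR adjusted p = 0.032). The call of ambp held in 13 of the 22 alternatives. It was lost with only the 2 groups of that age in the fit (adjusted p = 0.15), with library size alone (0.0687) and with limma on the normalized signal (0.118 and 0.0791). It was also lost without heterozygote replicate 1 (adjusted p = 0.107) or 3 (0.0747) or wild-type replicate 2 (0.0529) at 8 mpf, and without wild-type replicate 1 (0.0506) or 2 (0.0504) at 50 dpf.

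The heavy chain gene itih2 was lower in heterozygotes at 50 dpf and rose at 8 mpf, as ambp was and did. It was at 2.62, 3.6 and 2.46 CPM in the wild type and 1.32, 1.55 and 1.96 CPM in heterozygotes at 50 dpf, the smallest log2 difference of the inhibitors at that age (-0.83). At 8 mpf itih2 was at 2.19, 3.29 and 3.41 CPM in the wild type and at 8.46, 6.42 and 7.59 CPM in heterozygotes, and it rose by 1.34 on the log2 scale (SE 0.21; edgeR adjusted p = 0.000506). The heterozygote libraries at 8 mpf were above the 9 others.

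**Figure D3:**
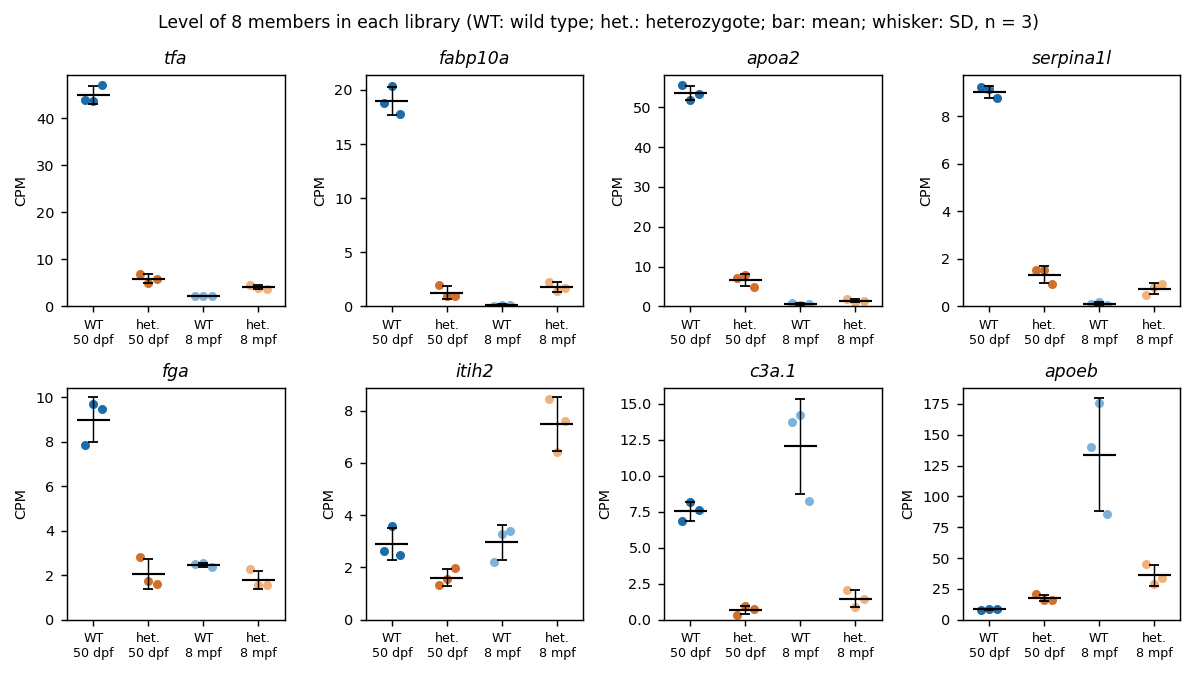
CPM in each library (points) for 8 members in the 4 groups, with the mean as a bar and the SD (n = 3) as whiskers, each panel on its own linear axis from 0. tfa, fabp10a, apoa2, serpina1l and fga are highest in wild type at 50 dpf, itih2 in heterozygotes at 8 mpf, and c3a.1 and apoeb in wild type at 8 mpf.

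Among the complement genes, c3a.1 fell at 8 mpf and the other 5 did not pass. This count is near the 15.5% of all tested genes that fell, so it is no result about the complement genes together. c3a.1 encodes a form of C3, the protein on which the complement pathways converge. It was at 6.83, 8.16 and 7.59 CPM in the wild type and 0.346, 0.951 and 0.733 CPM in heterozygotes at 50 dpf. At 8 mpf c3a.1 was at 13.7, 14.2 and 8.23 CPM in the wild type and 2.08, 0.907 and 1.42 CPM in heterozygotes, and it fell by 3.02 on the log2 scale (SE 0.32; edgeR adjusted p = 2.04e-05). Thus c3a.1 was lower in heterozygotes at both ages (11.1-fold and 8.2-fold in the means), and in wild type its 8 mpf libraries were above all 50 dpf libraries. Related c3 genes share sequence with it, so its count is uncertain in the same way as those of the serpins.

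The membrane attack complex, the pore that complement inserts into membranes, contains C9 and the chains of C8. At 50 dpf c9 was at 2.29, 2.2 and 2.18 CPM in the wild type and 0.277, 0.704 and 0.336 CPM in heterozygotes. The C8 beta chain gene c8b was at 0.806, 0.953 and 1.05 and 0.173, 0.106 and 0.641 CPM. At 8 mpf c9 was at 0.081, 0.282 and 0.363 CPM in the wild type and 0.231, 0.372 and 0.635 CPM in heterozygotes (log2 fold change 0.77, SE 0.50, edgeR adjusted p = 0.283), and c8b at 0.304, 0.221 and 0.0519 and 0.0992, 0.0465 and 0.219 CPM (log2 fold change -0.55, SE 0.75, edgeR adjusted p = 0.631). The groups of both genes overlapped at that age.

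The C8 alpha chain gene c8a was at 0.794 ± 0.323 CPM in the wild type at 50 dpf and had no count in heterozygotes of that age, at least 7.91-fold lower against the mean of floors of 3 counts per library. It had no count in wild type at 8 mpf either and 3, 0 and 12 counts in heterozygotes (edgeR adjusted p = 0.0547). That adjusted p was 0.0196 with DESeq2, 0.0277 without heterozygote replicate 2 at 8 mpf and 0.0467 without heterozygote replicate 1 at 50 dpf.

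Factor B (cfb), the protease of the alternative pathway, was at 1.63, 2.29 and 1.54 CPM in the wild type and 0.312, 0.0704 and 0.153 CPM in heterozygotes at 50 dpf, and at 0, 0.319 and 0.104 and 0.132, 0 and 0.208 CPM at 8 mpf (log2 fold change -0.27, SE 0.91, edgeR adjusted p = 0.858). C5 (c5), whose cleavage starts the assembly of the pore, was at 0.663 ± 0.395 CPM in the wild type and 0.0305 ± 0.0529 CPM in heterozygotes at 50 dpf. It had 0, 9 and 0 counts in wild type and 0, 0 and 0 counts in heterozygotes at 8 mpf (edgeR adjusted p = 0.151).

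Of the 9 lipid carriers, apoa2 and apoa1b rose at 8 mpf, apoeb fell and 6 did not pass. Of all tested genes 12.6% rose and 15.5% fell, so these few calls are no result about the lipid carriers together. Apolipoproteins A-I and A-II are the main proteins of high density lipoprotein. At 50 dpf apoa2 was at 55.5, 51.9 and 53.4 CPM in the wild type and 7.06, 7.78 and 4.92 CPM in heterozygotes. At 8 mpf apoa2 was at 0.81, 0.417 and 0.588 CPM in the wild type and 1.88, 1.07 and 1.35 CPM in heterozygotes, and it rose by 1.29 on the log2 scale (SE 0.27; edgeR adjusted p = 0.00319). Each group was apart from the others, with wild type highest at 50 dpf and lowest at 8 mpf.

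Of the A-I genes, apoa1b passed the threshold at 8 mpf and apoa1a did not. At 50 dpf apoa1b was at 31.3, 38.6 and 27.1 CPM in the wild type and 2.28, 4.54 and 3.48 CPM in heterozygotes, and apoa1a at 14.9, 16.6 and 13.1 and 0.45, 0.599 and 0.855 CPM. At 8 mpf apoa1b was at 0.121, 0.429 and 0.311 CPM in the wild type and 1.62, 1.19 and 1.8 CPM in heterozygotes, and it rose by 2.35 on the log2 scale (SE 0.35; edgeR adjusted p = 0.000345). The level of apoa1a at that age was 0.182, 0.135 and 0.0692 and 0.182, 0 and 0.281 CPM (log2 fold change 0.49, SE 0.60, edgeR adjusted p = 0.592), with overlapping groups. Whether the paralogs differ in their response was not tested.

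Apolipoprotein E, a ligand of lipoprotein receptors that macrophages make as well as the liver, has the gene copies apoeb and apoea in zebrafish. At 50 dpf apoeb was at 8.21, 8.61 and 8.93 CPM in the wild type and 20.6, 15.7 and 16.3 CPM in heterozygotes, the opposite order to the other fitted members. At 8 mpf apoeb was at 140, 176 and 85.4 CPM in the wild type and 45.3, 28.9 and 33.7 CPM in heterozygotes, and it fell by 1.90 on the log2 scale (SE 0.23; edgeR adjusted p = 7.26e-05). Its libraries did not overlap between the genotypes at either age, and the order of the genotypes was reversed between the ages.

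The other copy, apoea, was at 4.23, 4.62 and 3.91 CPM in the wild type at 50 dpf and had no count in heterozygotes of that age, at least 42.4-fold lower. At 8 mpf it had at most 6 counts in a library of either genotype (log2 fold change 0.55, SE 0.92, edgeR adjusted p = 0.7).

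The large lipoprotein scaffold apolipoprotein B (apobb.1) was at 6.15 ± 1.52 CPM in the wild type and 0.23 ± 0.286 CPM in heterozygotes at 50 dpf. At 8 mpf it was at 0.386 ± 0.155 and 1.03 ± 0.143 CPM, without overlap but not past the threshold (log2 fold change 1.37, SE 0.51, edgeR adjusted p = 0.0621). It passed without heterozygote replicate 1 (0.0143) or 3 (0.0154) at 50 dpf or wild-type replicate 2 at 8 mpf (0.0420), with DESeq2 (0.0176) and with only the groups compared (0.0229), and its adjusted p reached 0.501 in the other alternatives.

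The cofactor of lipoprotein lipase, apoc2, was at 3.3 ± 0.291 and 0.171 ± 0.222 CPM at 50 dpf and at 0.0204 ± 0.0354 and 0.165 ± 0.0577 CPM at 8 mpf in wild type and heterozygotes (log2 fold change 2.60, SE 0.98, edgeR adjusted p = 0.0663). Its adjusted p was 0.0290 and 0.0312 without heterozygote replicate 1 or 2 at 50 dpf and 0.0257 without wild-type replicate 2 at 8 mpf. The value was 0.0151 with DESeq2 and 0.0465 with the replicate block, and it reached 0.288 in the other alternatives. A small exchangeable apolipoprotein, apoc1, was at 8.48 ± 0.435 and 0.957 ± 0.389 CPM at 50 dpf. At 8 mpf 1 wild-type library set its mean, with 0.324, 4.42 and 1.09 CPM in the wild type and 0.612, 0.419 and 0.771 CPM in heterozygotes (log2 fold change -1.69, SE 0.65, edgeR adjusted p = 0.0703). Without wild-type replicate 2, the high library, the log2 fold change of apoc1 was -0.23 (edgeR adjusted p = 0.743), without wild-type replicate 1 it was -2.17 (0.00551), and with DESeq2 the adjusted p was 0.0255. apom, a carrier of the lipid sphingosine 1-phosphate, was at 1.63 ± 0.107 and 0.419 ± 0.162 CPM at 50 dpf and at 0.17 ± 0.118 and 0.148 ± 0.149 CPM at 8 mpf (log2 fold change -0.20, SE 0.73, edgeR adjusted p = 0.872).

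The genes of proteins that stay inside the liver cell were also highest in wild type at 50 dpf. The liver fatty acid-binding protein gene fabp10a, widely used in zebrafish to mark hepatocytes, was at 18.8, 20.4 and 17.8 CPM in the wild type and 1.94, 0.951 and 0.947 CPM in heterozygotes at 50 dpf. At 8 mpf fabp10a had 0, 14 and 10 counts in wild type and 138, 61 and 161 counts in heterozygotes. In CPM these were 0, 0.172 and 0.173 and 2.28, 1.42 and 1.68, and it rose by 3.83 on the log2 scale (SE 0.47; edgeR adjusted p = 7.42e-05), 15.6-fold in the means.

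The peroxisomal enzyme urate oxidase (uox) was at 1.23, 1.4 and 1.5 CPM in the wild type and 0, 0 and 0.214 CPM in heterozygotes at 50 dpf. At 8 mpf it had no count in wild type and 7, 0 and 14 counts in heterozygotes, and the groups overlapped. The heterozygote mean was 1.75-fold the mean of floors of 3 counts per wild-type library, which is no bound. The gene passed the threshold narrowly (edgeR adjusted p = 0.049). The fitted value depends on the prior count. The call was lost with any wild-type library of either age or heterozygote replicate 1 or 3 at 8 mpf left out, with adjusted p between 0.0730 and 0.144, and with the replicate number as a block (0.0705). It was also lost with library size alone (0.0676), upper quartile scaling (0.0536) and limma (0.184 and 0.193), and held in 8 of 21 alternatives. The carboxylesterase gene ces2a was at 1.66, 1.79 and 2.15 and 0, 0.176 and 0.397 CPM at 50 dpf and at 0.101, 0 and 0.0692 and 0.132, 0 and 0.167 CPM at 8 mpf, where it did not pass (log2 fold change 1.08, SE 1.08, edgeR adjusted p = 0.497).

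Genes of the same biology that are not members were taken from lists written with earlier results known and tested over all genes. Their counts stand beside 19.6% of all genes higher and 21.2% lower at 50 dpf and 12.6% and 15.5% at 8 mpf, the shares given above, and where a count is near these it is no result about the list. Of 43 other plasma protein genes tested, 2 were higher and 19 lower in heterozygotes at 50 dpf, and 5 were higher and 5 lower at 8 mpf, with medians of -1.54 and -0.02. Without heterozygote replicate 3 at 8 mpf, 3 were lower at that age. The fetuin gene ahsg2 was at 7.08, 7.63 and 6.81 CPM in the wild type at 50 dpf and had no count in heterozygotes of that age. Kininogen (kng1), the precursor of bradykinin, went the other way at 50 dpf, at 3.12 ± 0.358 CPM in the wild type and 8.14 ± 0.778 CPM in heterozygotes, and was at 1.37 ± 0.435 and 13.3 ± 1.13 CPM at 8 mpf; it rose by 1.37 on the log2 scale (SE 0.20; edgeR adjusted p = 0.000189) at 50 dpf and rose by 3.30 on the log2 scale (SE 0.21; edgeR adjusted p = 3.11e-07) at 8 mpf. Coagulation factor X (f10) fell in heterozygotes at both ages (-1.12 with adjusted p = 0.000533 and -1.52 with adjusted p = 0.000142, edgeR). hpxa, which the RefSeq gene table lists under the older name hpx and which is not a member, was at 5.6, 1.49, 0.898 and 1.83 CPM in the means of wild type and heterozygotes at 50 dpf and then at 8 mpf.

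Enzymes of the hepatocyte that stay in the cell summed to 88.7 to 90.8 CPM over 22 genes in wild type and 49.2 to 64.1 CPM in heterozygotes at 50 dpf, a ratio of the means of 1.55, where the members without apoeb had 7.89. Of 19 tested at 50 dpf, 1 rose and 7 fell. At 8 mpf 2 of 19 rose and 2 fell, shares below those of all genes (12.6% and 15.5%). The methyl transfer enzyme gene bhmt rose by 2.14 on the log2 scale (SE 0.21; edgeR adjusted p = 9.07e-06) at that age.

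Of 13 liver transcription factor genes tested, 2 fell and 11 did not pass at 50 dpf, and 4 fell and 9 did not pass at 8 mpf, where 21.2% and 15.5% of all genes fell. Without wild-type replicate 1, 2 or 3 at 8 mpf, the number that fell at 50 dpf was 4, 5 and 4, and without wild-type replicate 2 of that age 1 rose at 8 mpf. cebpa, a C/EBP factor of liver and myeloid cells, was at 5.97 ± 1.47 CPM in the wild type and 1.66 ± 0.397 CPM in heterozygotes at 8 mpf and fell by 1.84 on the log2 scale (SE 0.28; edgeR adjusted p = 0.000371).

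Of 21 genes of receptors and partners of the plasma proteins tested, 4 rose and 6 fell at 50 dpf, and 1 rose and 6 fell at 8 mpf. The shares at 50 dpf were near those of all genes (19.6% and 21.2%). lrp13, which in fish oocytes is known as a lipoprotein receptor, was at 1340 ± 73.2 CPM in the wild type and 1810 ± 141 CPM in heterozygotes at 50 dpf and rose by 0.44 on the log2 scale (SE 0.11; edgeR adjusted p = 0.0076). The transferrin receptor gene tfr1a fell by 1.19 on the log2 scale (SE 0.12; edgeR adjusted p = 9.52e-06) at 50 dpf and fell by 1.54 on the log2 scale (SE 0.12; edgeR adjusted p = 1.65e-06) at 8 mpf. The scavenger receptor gene stab2 rose at both ages (0.66 with adjusted p = 0.0024 and 1.09 with adjusted p = 8.55e-05, edgeR).

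Markers of some other tissues differed between the groups as well. Digestive enzyme genes of the exocrine pancreas summed over 13 genes to 392 to 454 CPM in the wild type and 223 to 337 CPM in heterozygotes at 50 dpf. At 8 mpf the sums were 19.0 to 35.6 and 59.4 to 103 CPM. Of the 13, 4 fell and 9 did not pass at 50 dpf (7 fell without wild-type replicate 1 at 8 mpf), and 13 rose at 8 mpf, among them the trypsin gene prss59.1 (log2 fold change 1.55, SE 0.29, edgeR adjusted p = 0.00179). At 50 dpf the wild-type mean over the heterozygote mean was 1.48 for the pancreas sum and 7.89 for the members without apoeb. At 8 mpf the heterozygote mean over the wild-type mean was 2.91 and 1.13 for these sums. With age in wild type 13 of the 13 pancreas genes were lower (26.5% of all genes), with a median log2 fold change of -4.22. The genotype effect at 8 mpf was above that at 50 dpf in 12 of the 13 (6.88% of all genes). The part of the pancreas in the levels of the members was not tested.

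The 7 vitellogenin genes, the best known products of the liver for the oocyte, had higher sums in heterozygotes at both ages. They summed to 458 to 571 CPM in the wild type and 770 to 961 CPM in heterozygotes at 50 dpf, and to 83.0 to 101 and 288 to 372 CPM at 8 mpf. Of the 7, 5 rose at 50 dpf and 7 at 8 mpf; vtg7 rose by 1.90 on the log2 scale (SE 0.15; edgeR adjusted p = 2.1e-06) at 50 dpf and rose by 2.04 on the log2 scale (SE 0.16; edgeR adjusted p = 1.66e-06) at 8 mpf. Some of the vitellogenin copies are near-identical, so the split of counts between those copies is uncertain.

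Leukocyte markers summed over 11 genes to 72.5 to 74.7 and 38.9 to 46.5 CPM at 50 dpf and to 49.5 to 67.1 and 33.1 to 45.1 CPM at 8 mpf in wild type and heterozygotes, and 6 of 10 fell in heterozygotes at each age. In wild type 6 of the 10 were higher and 2 lower at 8 mpf than at 50 dpf, where 28.7% and 26.5% of all genes were. The most abundant leukocyte markers had higher means in wild type at 50 dpf than at 8 mpf, with 27.6 and 12 CPM for cd74a, 26.3 and 14.8 CPM for rac2 and 10.9 and 9.07 CPM for coro1a. The macrophage genes csf1ra (4.45, 5.13 and 2.25 CPM in the wild type and 1.59, 0.605 and 0.833 CPM in heterozygotes) and spi1b (2.15, 4.86 and 1.94 and 0.975, 0.861 and 0.448 CPM) were highest in wild type at 8 mpf; both were chosen after their values were seen. The complement component C1q genes c1qa, c1qb and c1qc, chosen in the same way, were also highest there, with means of 2.28, 3.86 and 4.04 CPM, and fell at 8 mpf. Whether macrophages bear on apoeb and c3a.1 was not tested.

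Erythrocyte markers summed over 8 genes to 36.0 to 47.8 and 26.7 to 39.3 CPM at 50 dpf and to 26.7 to 36.2 and 18.9 to 37.0 CPM at 8 mpf, with 4 of 7 lower in heterozygotes at 50 dpf and 1 at 8 mpf. Intestinal markers summed over 8 genes to 8.09 to 9.2 and 3.46 to 3.97 CPM and to 0.294 to 0.81 and 0.833 to 1.54 CPM at these ages, and thrombocyte markers over 3 genes to at most 1.86 CPM. Stromal markers summed over 10 genes to 30.7 to 33.6 and 29.9 to 33.8 CPM at 50 dpf and to 22 to 29.6 and 14.0 to 16.1 CPM at 8 mpf, where 6 of 9 fell. Markers of the somatic cells of the follicle summed over 9 genes to 48.4 to 56.3 and 18.7 to 22.2 CPM at 50 dpf and to 5.48 to 7.35 and 4.05 to 4.55 CPM at 8 mpf. The part of these cells in the levels of the members was not tested.

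**Figure D4:**
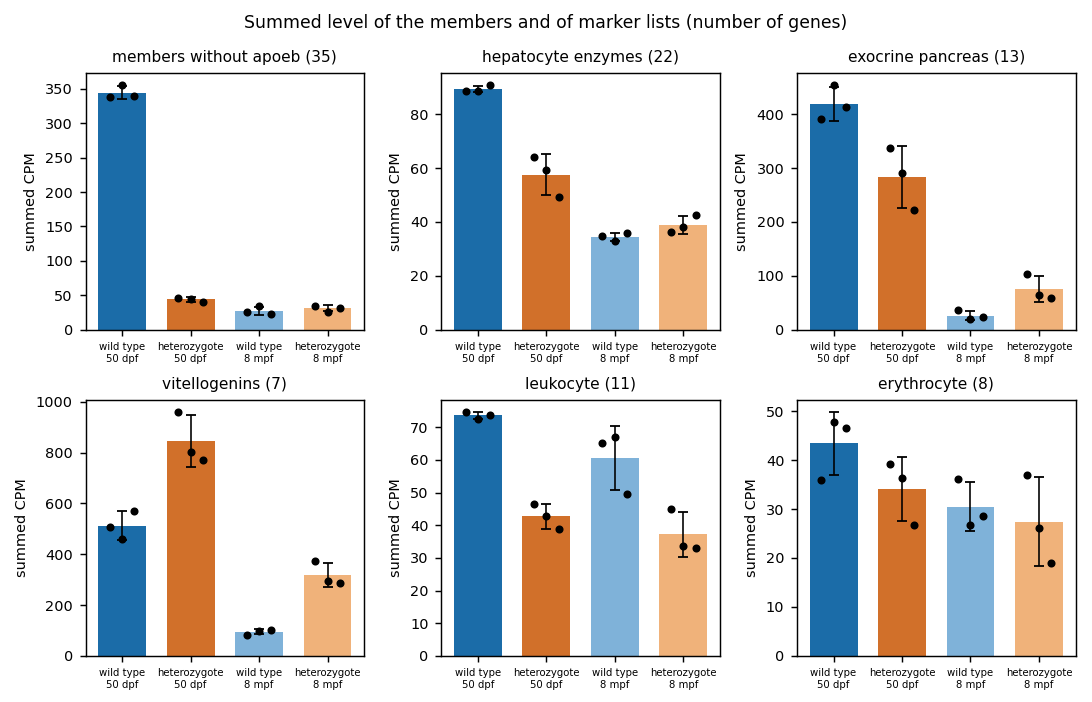
Summed CPM of the 35 members without apoeb and of lists of marker genes in each library (points), with group means as bars from 0 and SD (n = 3) as whiskers. The members fall from 338 to 355 CPM in the wild type at 50 dpf to 40.1 to 46.1 CPM in heterozygotes of that age, while the pancreas sum goes from 392 to 454 CPM to 223 to 337 CPM and the vitellogenin sum is higher in heterozygotes at both ages.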

How the data were processed

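RNA was extracted with TRIzol and made into strand-keeping libraries, per the labels' protocols. The submitters' processing notes name HISAT2, StringTie, DESeq2, bcl2fastq, FastQC 0.11.5 and genome build GRCz11, without giving their roles. The authors deposited estimated counts in 1 table and, in another, a normalized signal per gene; that the counts are estimates was inferred, since for all 15798 genes counted in every library the ratio of the tables had a geometric mean of 1. The tests used the deposited counts.

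Samples were grouped by their titles. The members and the other gene lists were chosen with earlier results of these data known. Gene names came from a table that matched 28988 of 32057 IDs; members were matched by symbol or by symbol in capitals, and genes of other lists also without the paralog letter. Older names and neighbouring genes were looked up in RefSeq genes of assembly GRCz12tu. Members were named by a fixed rule: the 4 with the highest mean CPM of each role and those past the threshold at 8 mpf with a log2 fold change of 1 or more in size are given in every library, and the others by mean ± SD or count. From other lists up to 4 genes past the threshold with the highest mean CPM could be named, and the other genes given with values were chosen after their values were seen. Some genes of these lists are counted but not reported singly here.

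edgeR 4.0.16 in R 4.3.3 kept 18834 of 26339 genes with a count (filterByExpr on the 4 groups), scaled them with the trimmed mean of M-values (TMM), and fitted all 12 libraries with 1 mean per group, sharing 1 estimate of the spread. Its quasi-likelihood F test was adjusted by Benjamini-Hochberg within a contrast, two-sided, with a threshold of 0.05. The SE was calculated as the size of the log2 fold change over the root of F. The steps were tested on simulated data. Replicates of a group differed by far more than counting noise (chi-square per degree of freedom 13.4 or more), so none was 1 library deposited under several names. Same-numbered libraries did not deviate together over all fitted genes (correlations of -0.159 to 0.144), and no pairing was used. A pairing that is weak or touches few genes could be missed in this way. A floor of 3 counts per library stands for a count of 0. It covers counting error only, and not the spread of the group that had counts. Alternatives were RLE, upper quartile and library size scaling, DESeq2 1.42.0, other filters, only the groups compared, the replicate number as a block, a minimum log2 fold change of 1, each library left out, and limma 3.58.1 on the log2 of the normalized signal deposited by the authors (pseudocount 1 or 0.1). Figures were drawn with matplotlib 3.10.9 in Python 3.11.15.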

Additional observations from a re-analysis of the deposited data

Results flagged for a closer look

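The genotype effect at 8 mpf less that at 50 dpf passed edgeR's threshold for 25 members. The difference holds the 50 dpf effect that chose the members, so it is a description and nothing is read from the count. It was positive for 24 of them, whose fitted effect at 50 dpf was negative, and negative for apoeb, whose effect at that age was positive. On the log2 scale the difference was 3.79 for tfa, 4.41 for cp, 1.48 for rbp4 and 6.62 for gc among the carriers. Among the clotting genes it was 1.68 for fga, 3.16 for fgb, 4.24 for fgg and 4.60 for f2. The protease inhibitors and fetuins had 5.30 for serpina1, 5.41 for serpina1l, 2.17 for itih2, 3.15 for ambp, 5.66 for fetub and 6.09 for ahsg1. Of the complement genes c9 had 3.11 and c8a 13.21. The lipid carriers had 5.02 for apoa1a, 5.58 for apoa1b, 4.32 for apoa2, 6.03 for apobb.1, 6.87 for apoc2, 11.35 for apoea and -2.92 for apoeb. Of the proteins kept in the liver cell fabp10a had 7.72 and uox 9.50. The values of c8a, apoea and uox involve a group without a count, depend on the prior count and are no bound.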

How the results depend on the processing

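No direction past the threshold was turned by any alternative, and the member median at 8 mpf stayed between 0.71 and 1.23. Of the counts and medians, 975 values stayed near the value reported and 50 moved. Whether same-numbered libraries are paired is not known. With the replicate number as a block, 12 members rose and 2 fell at 8 mpf, 30 were lower at 50 dpf, and 7 pancreas genes fell at 50 dpf. That block gave 2308 higher and 2676 lower genes at 8 mpf, and changed the 8 mpf call of apoc2 (gained, 0.0465) and uox (lost).

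With a minimum log2 fold change of 1, the genes past the threshold (higher, then lower) were 966 and 2495 at 50 dpf, 832 and 1857 at 8 mpf, 2556 and 2631 with age in wild type, 2826 and 2261 with age in heterozygotes and 845 and 711 for the difference of the genotype effects. It left 7 members lower with age in heterozygotes, 1 hepatocyte enzyme lower at 8 mpf, 1 other plasma gene higher at 50 dpf and 0 receptors higher at 50 dpf, since it only adds a condition.

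Library size alone shifted the median of all genes by -0.33 at 50 dpf and -0.18 at 8 mpf. It gave 1618 higher and 6749 lower genes at 50 dpf and 1337 higher at 8 mpf, a member median of -3.50 at 50 dpf, 7 members lower with age in heterozygotes, 9 pancreas genes, 4 transcription factors lower and 2 receptors higher at 50 dpf, and 8 other plasma genes lower at 8 mpf. Upper quartile scaling shifted that median by -0.16 and -0.17 with age.

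With only the groups compared, 9 pancreas genes fell at 50 dpf, 1 transcription factor rose at 8 mpf and 2 members were higher with age in wild type. limma with a pseudocount of 0.1 gave a member median of -6.25 with age in wild type, 6 members lower with age in heterozygotes (6 with 1), 1 hepatocyte enzyme and 3 other plasma genes lower at 8 mpf.

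With each library left out in turn, the difference of the genotype effects passed for 878 to 2131 genes upwards and 821 to 1987 downwards (most without wild-type replicate 2 at 8 mpf, fewest lower without wild-type replicate 2 at 50 dpf), and 1521 to 2818 genes rose at 8 mpf (fewest without heterozygote replicate 3 of that age). Pancreas genes lower at 50 dpf numbered 3 to 7, transcription factors 2 to 5 lower at 50 dpf and 0 to 1 higher at 8 mpf, other plasma genes lower at 8 mpf 3 to 6, and members higher with age in wild type 1 to 2. Member medians ran from -0.77 to -0.33 with age in heterozygotes, from -5.04 to -4.56 with age in wild type and from 3.76 to 4.47 for the difference. The causes were not tested. Low counts at 8 mpf and groups without a count limit the precision of single members.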

Other observations

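Some members lie side by side in the genome. In the RefSeq gene table of GRCz12tu, which placed 37 symbols, no protein-coding gene lies between serpina1 and serpina1l, between fetub and ahsg1, between c8a and c8b, between apoa2 and apoc2 or between apoeb and apoc1, and 1 lies between fga and fgb. Neighbours did not always have the same pattern. apoa2, apoc2, apoc1 and apoeb lie within 3 genes of each other, yet in wild type from 50 dpf to 8 mpf the log2 change was -6.50 for apoa2, -6.88 for apoc2, -2.08 for apoc1 and 3.96 for apoeb. By contrast the neighbours fetub and ahsg1 had -7.93 and -7.50, and serpina1 and serpina1l had -6.49 and -6.23. The apoc1 value depends on 1 high wild-type library at 8 mpf, where the libraries were at 0.324, 4.42 and 1.09 CPM.

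The relative levels of the 36 members in a group, as log2 of the mean CPM plus 0.1, were alike between heterozygotes of both ages, with a Pearson correlation of 0.88 across the members. It was 0.81 between the genotypes at 50 dpf, 0.84 between them at 8 mpf, 0.67 between young wild type and old heterozygotes and 0.41 between wild type of both ages. Without apoeb, c3a.1 and itih2, chosen after their values were seen, these were 0.90, 0.87, 0.77, 0.84 and 0.58. Members are not independent and share libraries and transcript lengths, so these values are a description.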
